A study of Mus musculus with 20 samples.

Results

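Oxidative phosphorylation subunits encoded in the nucleus were taken from the deposited count tables by gene name. The names began with Ndufa, Ndufb, Ndufc, Ndufs or Ndufv and a number, with Uqcr, with Cox4 to Cox8 and a letter a to c, or with Atp5, and Sdha, Sdhb, Sdhc and Sdhd were added. This gave 82 of the 24391 genes counted, namely 37 of complex I, 4 of complex II, 8 of complex III, 16 of complex IV and 17 of complex V. The complex was read from the name. It therefore places Ndufa4, now regarded as a complex IV subunit, in complex I, and it includes Cox7a2l, a factor of respiratory supercomplexes, and Atp5s and Atp5sl, which are not core subunits of the ATP synthase.

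RNA was sequenced from 20 samples of E2-10HA, a mouse T cell hybridoma line. In the H2A.Z guide group (n = 6), cells carried lentiCRISPRv2 with guides to H2afv and H2afz, the genes of the histone variant H2A.Z, and were selected with puromycin. All 6 titles bear 1 number, and the group is taken to stand for 1 line. CRISPR control cells (n = 6) carried the same vector without a guide and the same selection. NICD-ER cells, selected by sorting, held the intracellular domain of Notch (NICD) fused to an estrogen receptor domain. They received 4-hydroxytamoxifen (4-OHT, n = 2) or ethanol (n = 2) for 24 hours. BioNICD cells, selected with histidinol and sorted, held a biotin ligase with tagged NICD, either in a DEP mutant form (n = 2) or wild type (n = 2). The labels do not say that replicates were separate cultures, so p-values measure the spread between these samples only, which may be technical.

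The respiratory chain passes electrons from NADH through complex I, or from succinate through complex II, to ubiquinone and on through complex III and cytochrome c to complex IV, where oxygen is reduced. The proton gradient made on the way drives ATP synthesis by complex V. A small set of subunits is encoded in mitochondrial DNA and the rest in the nucleus, from where the proteins are imported. Activated T cells need both glycolysis and respiration, and several complex IV subunits exist as a muscle isoform and an isoform used in most other tissues.

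Promoters of these genes are known to share binding motifs of the factors NRF-1, of the ETS family (GABP) and YY1. RefSeq promoters of the build GRCm38.p6, from 250 bases before to 50 after the start, were matched for 69 of the 82 genes, and each motif was searched on both strands. GCGCANGCG, the core of the NRF-1 site, stood in 20 of the 69 (29.0%), against 17.0% of the promoters of 8145 genes tested in the H2A.Z comparison and 7.03% of all 27025 promoters. With a further C required after it, 17 of the 69 (24.6%) held it, against 13.0% and 5.19%. CCGGAAG, written for the ETS family, stood in 16 (23.2%), against 22.8% and 9.93%. AAGATGGC, written for YY1, stood in 11 (15.9%), against 5.92% and 3.19%. The end of the ETS motif and the start of the YY1 motif share AAG, and no window held a pair that ran into each other. The stretches below are the 150 bases before the start of 4 genes described later, all on the gene's strand, with motif matches in capitals. Those of Sdhd and Cox6a1, lower with the guides, hold a GCGCANGCG match and the reverse strand of CCGGAAG. The printed stretches of Ndufb6, also lower, and Ndufa7, higher with the guides, hold none of the motifs. Ndufb6 is still counted among the genes with the ETS motif, its match lying outside the stretch printed.
Sdhd, chr9:50603850-50603999, minus strand: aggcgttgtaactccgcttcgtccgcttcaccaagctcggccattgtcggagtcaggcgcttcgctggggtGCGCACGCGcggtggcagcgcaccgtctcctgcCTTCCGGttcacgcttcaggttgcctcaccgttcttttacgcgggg
Cox6a1, chr5:115348959-115349108, minus strand: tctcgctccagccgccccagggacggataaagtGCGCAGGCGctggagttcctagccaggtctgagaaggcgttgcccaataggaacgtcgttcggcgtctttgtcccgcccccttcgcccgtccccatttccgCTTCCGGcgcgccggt
Ndufb6, chr4:40279422-40279571, minus strand: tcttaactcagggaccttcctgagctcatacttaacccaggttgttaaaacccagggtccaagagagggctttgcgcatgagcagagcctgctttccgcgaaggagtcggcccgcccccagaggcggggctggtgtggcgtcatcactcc
Ndufa7, chr17:33824422-33824571, plus strand: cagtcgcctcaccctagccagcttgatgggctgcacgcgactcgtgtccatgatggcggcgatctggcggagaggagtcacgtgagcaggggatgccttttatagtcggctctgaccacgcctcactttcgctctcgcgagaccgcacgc

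Total counts ran from 10704131 to 48238324 per sample, and the subunit genes held 1.07% to 1.51% of them. H2afz averaged 5.20 ± 0.43 CPM (counts scaled to a common library size) with the guides and 28.2 ± 2.52 CPM in controls (SD, n = 6 each). H2afv averaged 36.1 ± 12.0 CPM with the guides and 128 ± 11.8 CPM in controls. Markers of T cells summed to 1077 to 2006 CPM in every sample. Myeloid markers, mostly 1 gene, summed to 0.594 and 0.658 CPM in the DEP mutant samples and to 61.6 and 63.0 CPM in wild-type BioNICD samples. Their part in the BioNICD results was not tested. The ribosomal RNA precursor Rn45s held 6.73% to 7.67% of the counts in control replicate 6 and guide replicates 5 and 6, above all other CRISPR samples. Fibroblast markers (Col1a1, Col1a2 and Dcn) summed to 28.5 CPM in guide replicate 1 and 24.8 CPM in control replicate 1, and to at most 0.285 CPM in the other 18 samples. Replicates of 1 group formed clusters: the mean chi-square per gene was 2.75 between guide replicates 3 and 4 and 3.23 between 5 and 6, against 30.2 to 92.5 for the other pairs of guide samples. It was 2.99 to 5.59 between control replicates 1 and 2 and among 3, 4 and 5, against 21.9 to 56.9 for the other pairs of control samples. The 12 CRISPR samples may therefore hold fewer independent replicates than their number, and p-values that count each sample may be too small. In the NICD groups the chi-square was 2.66 between the wild-type BioNICD samples, 3.20 between the DEP mutant samples and 4.26 between the 4-OHT samples. It was 19.9 between the ethanol samples. The samples of the close pairs may likewise not be independent, and p-values of the NICD comparisons may also be too small. Among replicate samples, guide replicate 1 was the highest of the 6 guide samples in 27 and the lowest in 22 of the 73 subunit genes tested, and results that rest on it are given without it as well.

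Summed over all 82 genes, the level was 13243 ± 387 CPM with the H2A.Z guides (SD, n = 6; 12676 to 13733) and 14535 ± 517 CPM in CRISPR controls (n = 6; 14018 to 15320). These ranges did not overlap, but they did without the TMM factor, where guide samples reached 13711 CPM and controls began at 13453 CPM, and with Rn45s left out of the total, where guide samples reached 14142 CPM and controls began at 14006 CPM. NICD-ER samples summed to 10022 and 10224 CPM with 4-OHT and 10433 and 10484 CPM with ethanol. BioNICD samples summed to 11959 and 12008 CPM with the DEP mutant and 10931 and 11476 CPM with wild type.

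**Figure D1:**
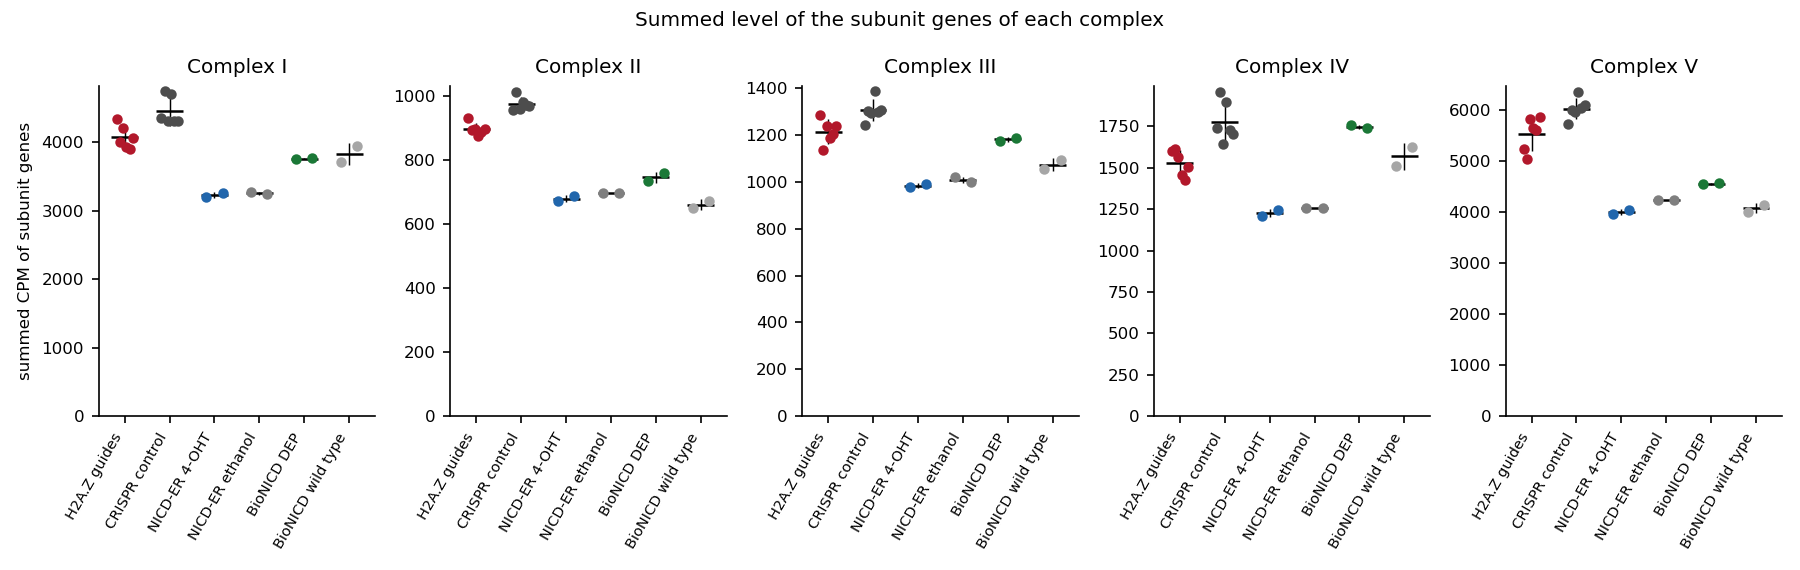
Summed CPM of the subunit genes of each complex (y axes, from 0) in every sample of the 6 groups (points), with the mean and SD of each group (bars and whiskers). Complex V sums to 5529 CPM with the guides and 6022 CPM in controls on average, and complex II to 896 CPM with the guides and 974 CPM in controls.

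By complex, all sums were lower on average with the guides than in controls. Complex I summed to 4075 ± 170 CPM with the guides and 4455 ± 212 CPM in controls, and complex II to 896 ± 18.9 CPM with the guides and 974 ± 20.7 CPM in controls. Complex III summed to 1215 ± 52.1 CPM with the guides and 1306 ± 47.1 CPM in controls, and complex IV to 1527 ± 77.5 CPM with the guides and 1777 ± 122 CPM in controls. Complex V summed to 5529 ± 330 CPM with the guides and 6022 ± 202 CPM in controls (SD, n = 6 each). Between the DEP mutant and wild type the order was the other way for complexes II to V. Complex IV summed to 1748 ± 12 CPM with the DEP mutant and 1569 ± 81.9 CPM with wild type (SD, n = 2 each), and complex I to 3761 ± 6.05 CPM with the DEP mutant and 3829 ± 160 CPM with wild type. These sums are descriptions and carry no test.

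Levels of different genes were compared per kilobase of exon, as CPM per kb averaged over the 20 samples. The median gene stood at 114 CPM per kb in complex I, 125 in complex II, 189 in complex III, 147 in complex IV and 169 in complex V. Atp5b, the catalytic beta subunit of the ATP synthase, was the highest of all at 1082 CPM per kb. The highest genes of the other complexes were Ndufb9 at 420 CPM per kb, Sdhb at 201, Uqcrh at 283 and Cox6c at 517. The lowest detected genes of the complexes were Ndufa4l2 at 0.431 CPM per kb, Sdhc at 109, Uqcrb at 29.2, Cox7b2 at 0.0026 and Atp5l at 0.408. Ndufs5 and Cox8c had 0 counts in all 20 samples. For Ndufs5, 95.1% of the exonic length is shared on the same strand with the listed gene BC002163, so its value is uncertain. Atp5l, Cox7c, Atp5g1, Atp5g2 and Uqcrb have or may have near-identical copies elsewhere in the genome, and their levels are uncertain too.

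Most complex IV isoform groups were represented by 1 member. Cox6b1 held over 99.8% of the Cox6b level per kb in every sample, Cox8a over 99.7% of Cox8 and Cox7b over 99.9% of Cox7b with Cox7b2. Cox7a2 held 64.8% ± 2.25 of the Cox7a level per kb with the guides and 66.8% ± 1.89 in controls (SD, n = 6 each). Cox7a1, the muscle isoform, held 12.6% ± 1.51 with the guides and 12.1% ± 1.61 in controls. In Cox6a the balance differed between groups. Cox6a2, known as the heart and muscle isoform, held 5.56% ± 1.61 of the Cox6a level per kb with the guides and 19.8% ± 7.06 in controls. It held 10.2% ± 0.556 with 4-OHT and 12.8% ± 0.367 with ethanol, and 22.6% ± 0.37 with the DEP mutant and 12.4% ± 0.337 with wild type (SD, n = 2 each).

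The H2A.Z comparison, the first of 3, asked which genes differ in cells with the guides. Of the 82 genes, 73 passed the filter on low counts, and the quasi-likelihood test of edgeR called 2 higher and 39 lower at an adjusted p under 0.05, with 32 not called. Over all 10662 genes tested, 31.8% were called higher and 32.7% lower, 64.5% in either direction. The median log2 fold change of the subunit genes was −0.17, against −0.01 for all genes, and 62 of the 73 (84.9%) were below 0, against 50.8% of all genes. Ranges of the groups did not overlap in 1 gene higher and 17 lower, against 17.1% and 16.5% of all genes. The changes were mostly small, and the lower genes came from every complex: 21 of 35 tested in complex I, 2 of 4 in complex II, 3 of 8 in complex III, 6 of 11 in complex IV and 7 of 15 in complex V. Without guide replicate 1, 4 were called higher and 41 lower, against 34.5% and 34.4% of all genes. Without guide and control replicates 1, the samples with fibroblast markers, 3 were higher and 43 lower, against 34.4% of all genes each way. With close replicates summed to 1 sample each (4 guide and 3 control samples), 2 were higher and 21 lower, against 25.0% and 22.4% of all genes, and the median of the subunit genes was −0.16. By edgeR 18 calls were then lost (adjusted p of 0.0519 to 0.275), among them those of Atp5a1, Atp5b, Atp5e, Atp5sl, Cox6c, Cox7a2, Cox7b, Ndufa3, Ndufa4, Ndufa9, Ndufb4, Uqcrb and Uqcrc2.

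**Figure D2:**
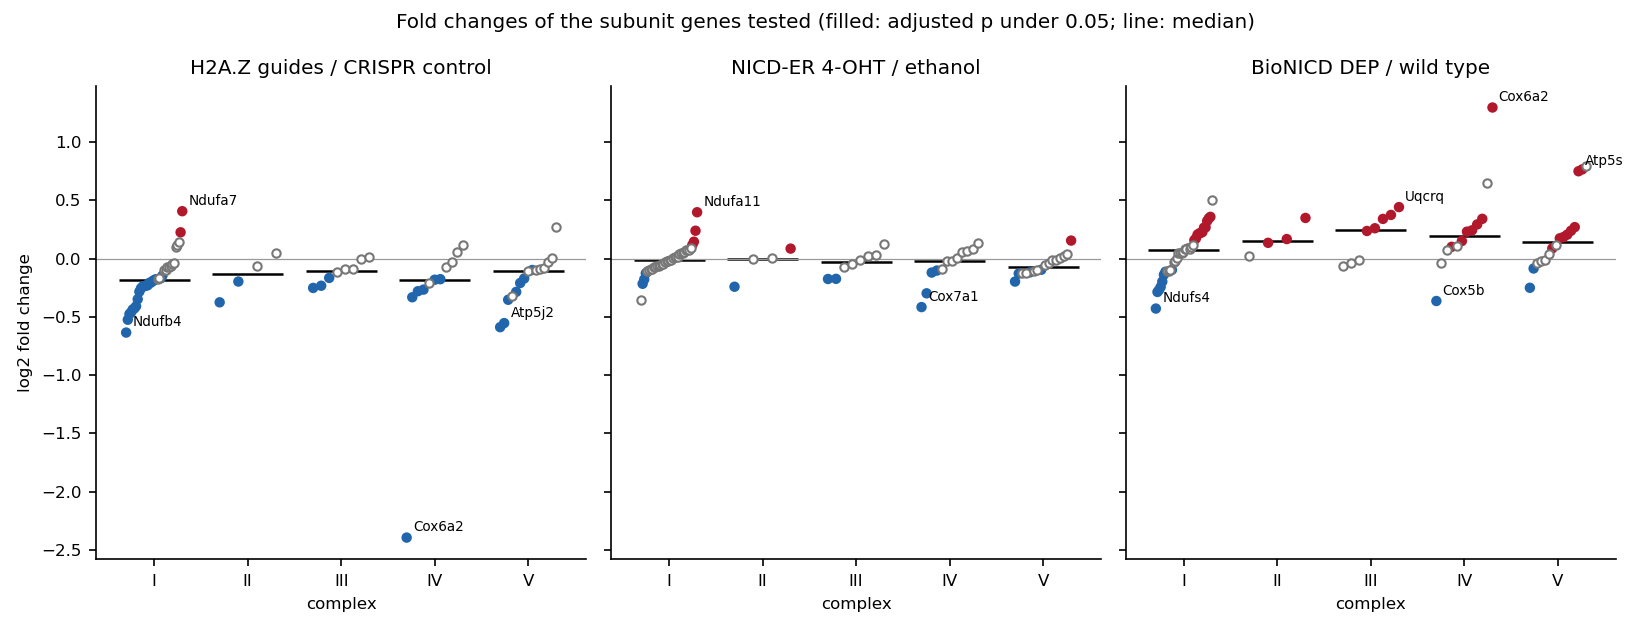
Log2 fold change (y axis) of each subunit gene tested, ordered by value within complexes I to V (x axis), in the 3 comparisons. Filled points passed an adjusted p of 0.05 (blue lower, red higher), open points did not, and lines mark the median of each complex; Cox6a2 stands at −2.39 with the guides and 1.30 with the DEP mutant.

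Cox6a2 had the largest change of the set. Guide replicates 1 to 6 had 10.4, 10.5, 17.9, 16.8, 13.7 and 16.2 CPM, and control replicates 1 to 6 had 36.3, 44.3, 92.5, 106.3, 88.3 and 95.8 CPM. No guide sample reached the lowest control, and control replicates 1 and 2 stood well below the other 4. Cox6a2 was thus lower with the guides, by −2.39 on the log2 scale (edgeR, SE 0.103, adjusted p = 1.15e-11). Cox6a2 lies on mm9 chromosome 7 from 135348949 to 135349880 on the minus strand, and its exons share 69 bases, 10.5% of its exonic length, with Itgad on the other strand. Itgad ran from 0 to 0.13 CPM with the guides and from 0 to 1.27 CPM in controls. Muscle markers summed to 1.29 to 2.10 CPM with the guides and 0.0656 to 0.471 CPM in controls, with Myh7 and Tnnt2 at 0 in both. Their part in the difference was not tested.

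**Figure D3:**
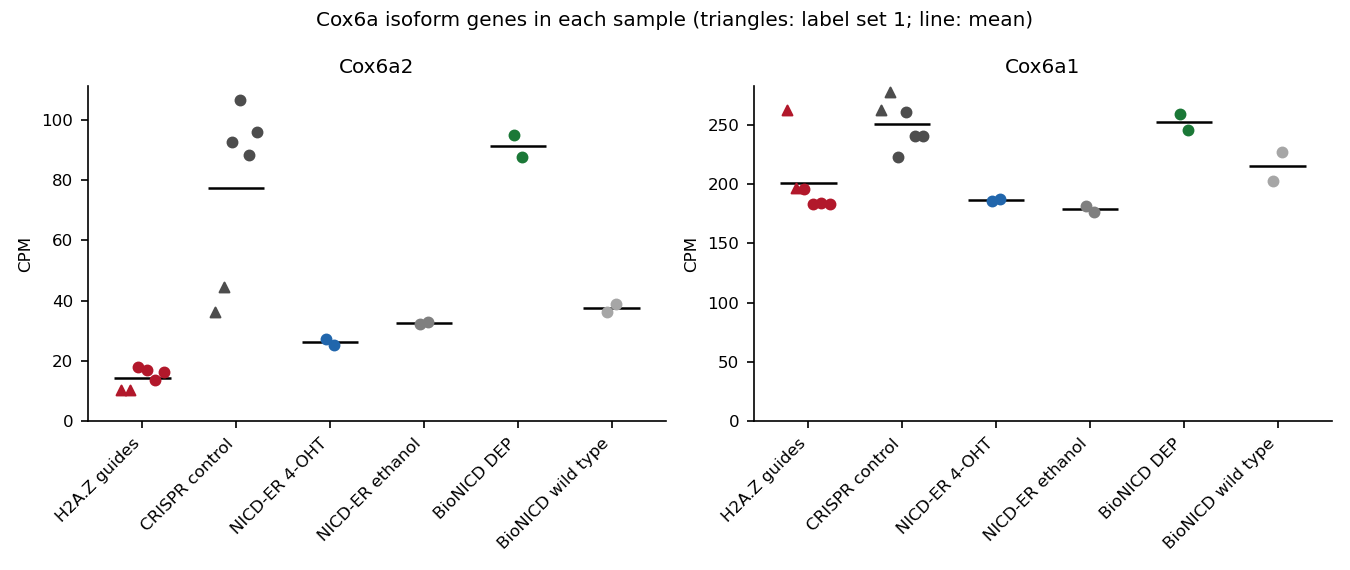
CPM of Cox6a2 and of Cox6a1 (y axes, from 0) in every sample of the 6 groups (points), with group means. Cox6a2 has 10.4 to 17.9 CPM in guide samples, below the 36.3 to 106.3 CPM of controls, and is above 87 CPM in both DEP mutant samples.

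Cox6a1, the isoform of most tissues, also fell. It had 183, 189.7 and 263 CPM with the guides (lowest, median, highest) and 223, 250.4 and 278 CPM in controls. The groups overlapped through guide replicate 1 alone. The log2 fold change was −0.33 (SE 0.062, adjusted p = 0.000214), and −0.39 (adjusted p = 3.26e-07) without that sample. The other lower genes of complex IV were Cox6b1 (−0.28, adjusted p = 0.000804), Cox6c (−0.27, 0.000518), Cox7b (−0.18, 0.00407) and Cox7a2 (−0.18, 0.00722), all log2 fold changes with edgeR adjusted p. Cox7a1 at −0.07, Cox7a2l at −0.03 and Cox8a at 0.11 were not called.

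Complex I held lower genes and the only higher ones. Its flavin-binding core subunit Ndufv1 had 132.8, 149.3 and 156.5 CPM with the guides (lowest, median, highest) and 159.7, 177.9 and 185.7 CPM in controls. The groups did not overlap, and the log2 fold change was −0.25 (SE 0.042, adjusted p = 6.09e-05). Ndufs8, a core iron-sulfur subunit, had 75.1, 86.0 and 93.4 CPM with the guides and 104.0, 112.4 and 122.5 CPM in controls, without overlap (−0.43, SE 0.062, adjusted p = 1.61e-05). Ndufs1, the largest iron-sulfur core subunit, averaged 295.7 ± 12.5 CPM in guide samples and 307.9 ± 7.37 CPM in controls and was not called (−0.07, adjusted p = 0.129).

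Among accessory subunits of complex I, Ndufa10 had 172, 209.5 and 216.9 CPM with the guides and 266.3, 272.7 and 286.6 CPM in controls (−0.48, SE 0.049, adjusted p = 3.38e-07), and no guide sample reached a control. Ndufa5 had 33.4, 48.3 and 51.4 CPM with the guides and 55.9, 61.6 and 77.5 CPM in controls (−0.52, SE 0.072, adjusted p = 8.78e-06), again without overlap. Ndufb6 had 51.3, 58.5 and 64.8 CPM with the guides and 69.7, 80.7 and 83.6 CPM in controls (−0.46, SE 0.042, adjusted p = 9.44e-08), also without overlap. Ndufb4 had 2.40, 13.1 and 14.9 CPM with the guides and 16.2, 17.5 and 20.9 CPM in controls, or −0.63 on the log2 scale (SE 0.236, adjusted p = 0.0273). Its lowest value was guide replicate 1, without which the log2 fold change was −0.41 (adjusted p = 0.000115). The call of Ndufb4 was lost without control replicate 2 (−0.54, adjusted p = 0.0676) and without guide replicate 4 (−0.62, 0.0517).

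The pair that went the other way was Ndufa7 and Ndufa13, both accessory subunits of complex I. Ndufa7 had 131.7, 147.4 and 201.8 CPM with the guides and 105.9, 110.9 and 131.1 CPM in controls (0.41, SE 0.071, adjusted p = 0.000108), without overlap. Ndufa13, also known as GRIM-19, averaged 110.6 ± 13.5 CPM with the guides and 93.8 ± 4.73 CPM in controls (0.23, SE 0.065, adjusted p = 0.00606). Ndufa13 lies on chromosome 8, where the median of all 571 genes tested was 0.51.

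Complex II is also an enzyme of the citric acid cycle. Its membrane anchor Sdhd had 165, 177.6 and 183.8 CPM with the guides and 208.2, 236 and 240.1 CPM in controls (−0.38, SE 0.039, adjusted p = 4.37e-07), without overlap. Sdhc, the other anchor, had 123.4, 126.9 and 149.9 CPM with the guides and 137.3, 141.3 and 177.6 CPM in controls (−0.20, SE 0.037, adjusted p = 0.000213), with overlap. The catalytic subunits were not called, Sdha at −0.07 (adjusted p = 0.0977) and Sdhb at 0.04 (0.52).

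In complex III, the Rieske iron-sulfur protein Uqcrfs1 had 128.6, 139.1 and 152 CPM with the guides and 153.4, 164.6 and 178.9 CPM in controls (−0.25, SE 0.038, adjusted p = 2.34e-05). The core protein Uqcrc2 averaged 316 ± 11.2 CPM with the guides and 353 ± 4.79 CPM in controls (−0.17, adjusted p = 0.000607). Neither gene's groups overlapped. Uqcrb averaged 14.7 CPM with the guides and 17.2 CPM in controls (−0.23, adjusted p = 0.0226), a call lost without control replicate 1 (adjusted p = 0.0575) or 2 (0.0589). Uqcrc1, the other core protein, was at −0.09 (0.147).

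In complex V, the largest changes were in Atp5k and Atp5j2, the e and f subunits of the membrane part. Atp5k had 67.8, 74.0 and 77.2 CPM with the guides and 101.5, 104.5 and 121.8 CPM in controls (−0.59, SE 0.058, adjusted p = 2.06e-07). Atp5j2 had 59.4, 68.3 and 78.3 CPM with the guides and 80.4, 98.1 and 122.5 CPM in controls (−0.55, SE 0.087, adjusted p = 3.83e-05). Both sets of groups were separate. Atp5h of the stalk (−0.35, adjusted p = 0.0014) and Atp5e, the epsilon subunit (−0.29, 0.00665) were also lower. The alpha subunit Atp5a1 averaged 1463 ± 65.2 CPM with the guides and 1638 ± 31.3 CPM in controls (−0.17, adjusted p = 0.000571), without overlap. Atp5b averaged 2307 ± 187 CPM with the guides and 2453 ± 91.4 CPM in controls (−0.10, adjusted p = 0.0376), and this call was lost in 16 of the settings tried. Of the genes for the c subunit, Atp5g3 stood at 0.01 and was not called. It held at least 98.9% of the Atp5g level per kb in every sample. This share is uncertain, because the levels of Atp5g1 and Atp5g2 are.

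Atp5j2, Atp5k and Cox6a1 lie on chromosome 5, where the median of all 682 genes tested was −0.33. Outside chromosomes 5 and 8, 68 subunit genes were tested, of which 1 was higher and 36 lower, with a median of −0.17. Of all genes on any chromosome, 31.8% were higher and 32.7% lower. Subunit genes are short, and short genes were lower as a whole: among all genes with under 1000 bases of exon, 333 of 873 were lower and 139 higher, with a median of −0.12. Under 500 bases the median was −0.045 for all genes and −0.17 for the 13 subunit genes. Of the subunit genes under 1000 bases, 25 of 46 were lower and 0 higher (median −0.20). Of those with 1000 bases or more, 14 of 27 were lower and 2 higher (median −0.15), against 3151 lower and 3251 higher of 9789 genes (median 0.001). With an offset for length in the fit, 29 subunit genes were lower and 10 higher (median −0.09), against 34.0% and 31.1% of all genes, and the calls of Ndufb4, Uqcrb, Cox6c, Cox7a2, Cox7b and Ndufa4 were lost.

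**Figure D4:**
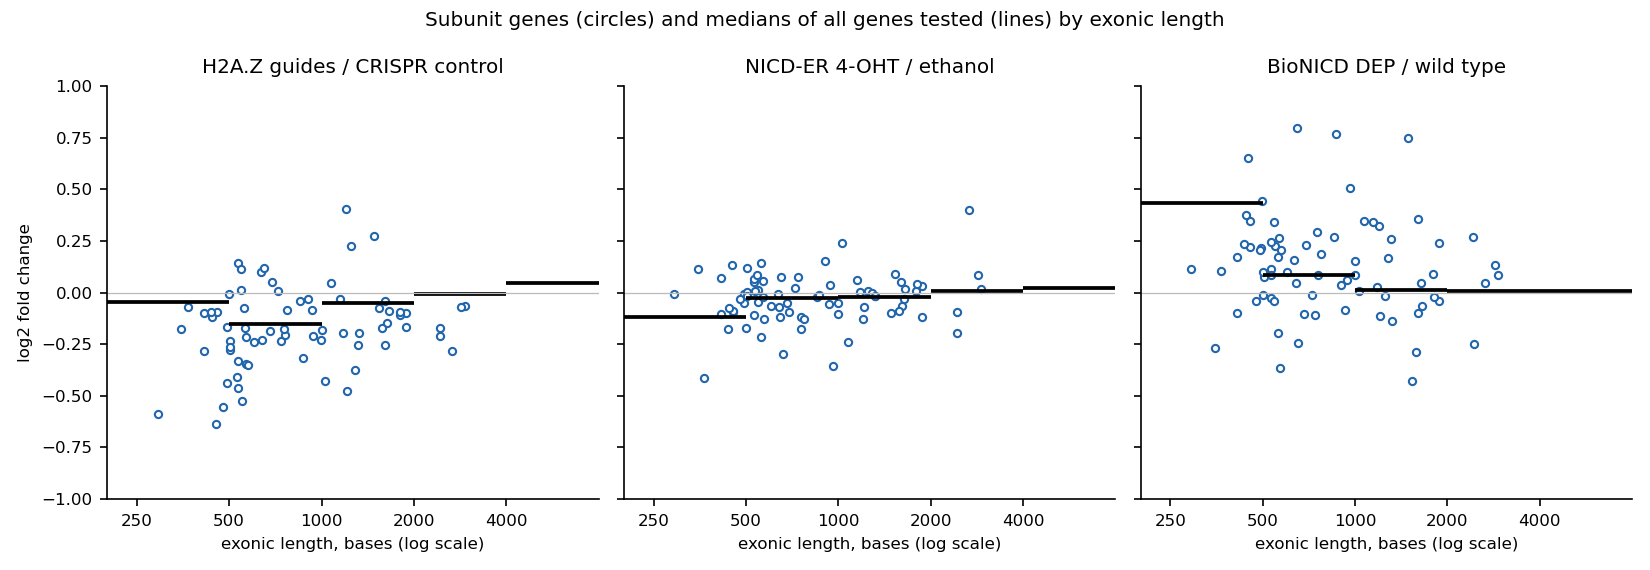
Log2 fold change (y axis, −1 to 1) against exonic length in bases (x axis, log scale) for each subunit gene tested (circles), with the median of all genes tested in each length class (lines). Cox6a2 lies outside the axis with the guides and with the DEP mutant. Among all genes of 500 to 1000 bases the median with the guides is −0.15, and the subunit genes of that class have −0.21.

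A treatment field is filled in for CRISPR replicates 1 and 2 and absent for replicates 3 to 6. These are treated as 2 label sets, each with both groups. Fitted on set 1 alone, 8 subunit genes were lower and 1 higher, against 13.0% and 14.6% of all genes, and on set 2 alone 42 were lower and 5 higher, against 36.4% and 35.7%. In 50 of the 73 genes the log2 fold change was below 0 in both sets, and in 7 it was above 0 in both. No share of all genes is given for these counts, so they do not set the subunit genes apart. The difference of the guide effect between the sets, set 2 minus set 1, was tested itself and called higher in 1 gene and lower in 4, against 8.19% and 7.49% of all genes. Cox6a2 was at −2.57 in set 2 and −1.95 in set 1 (difference −0.62, SE 0.164, adjusted p = 0.0199). Atp5e was at −0.45 in set 2 and 0.04 in set 1 (−0.49, adjusted p = 0.0147). The others were Uqcrh (−0.38), Uqcr10 (−0.33) and Ndufa10 (0.28).

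**Figure D5:**
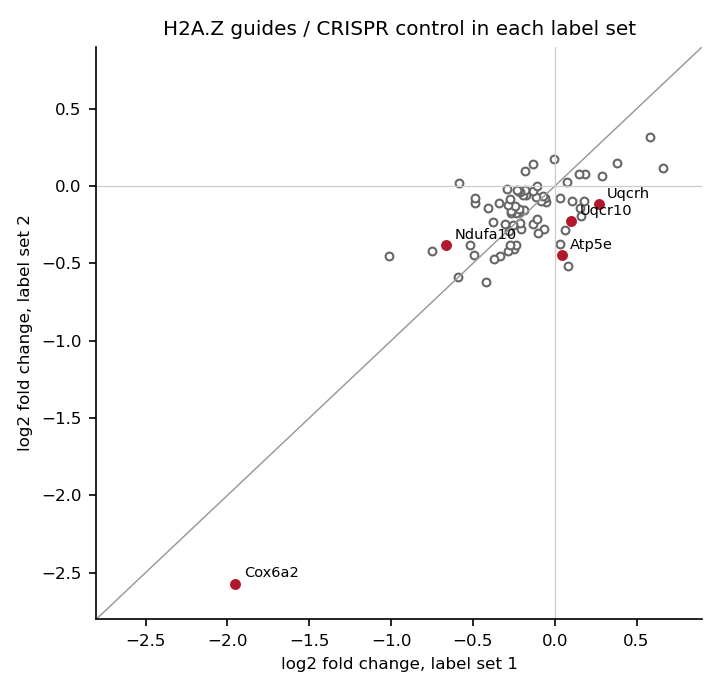
Log2 fold change of each subunit gene, H2A.Z guides over controls, in label set 1 (x axis) and label set 2 (y axis). Most points lie below 0 on both axes, and filled points mark the 5 genes whose effect differed between sets, among them Cox6a2 at −1.95 and −2.57.

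The NICD-ER comparison asked what 24 hours of 4-OHT, which activates the fusion, change. Of 76 subunit genes tested, edgeR called 6 higher and 14 lower, with 56 not called, against 19.0% higher and 17.2% lower of all 12499 genes, 36.2% in either direction. The median log2 fold change was −0.02, against −0.0004 for all genes. Groups did not overlap in 16 genes higher and 30 lower, against 32.3% and 34.2% of all genes. The count was sensitive to single samples. The median of the subunit genes was −0.01 without 4-OHT replicate 1, −0.04 without 4-OHT replicate 2 and −0.01 without ethanol replicate 2. Ethanol replicate 1 stood apart, with 2812 counts of Lars2 against 77748 and 121424 with 4-OHT and 89950 in ethanol replicate 2. The mean chi-square per gene was 4.26 between the 4-OHT samples and 19.9 between the ethanol samples. Without ethanol replicate 1, 11 genes were lower and 4 higher, against 13.5% and 14.2% of all genes.

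Sdhb, the iron-sulfur subunit of complex II, had 159.8 and 167.8 CPM with 4-OHT and 197.4 and 192.1 CPM with ethanol (−0.24, SE 0.039, adjusted p = 3.12e-05). Cox6a2 had 27.2 and 25.3 CPM with 4-OHT and 32.2 and 32.7 CPM with ethanol (−0.30, SE 0.063, adjusted p = 0.00061). Cox7a1 had 6.64 CPM in both 4-OHT samples and 8.28 and 9.51 CPM with ethanol (−0.42, SE 0.133, adjusted p = 0.0167). In these 3 genes both 4-OHT samples stood below both ethanol samples, and the call of Cox7a1 was lost without ethanol replicate 2 (−0.31, adjusted p = 0.0979), 4-OHT replicate 1 (0.0587) or 4-OHT replicate 2 (0.0796). Ndufa11, an accessory subunit of complex I, had 58.6 and 58.9 CPM with 4-OHT and 46.4 and 43.3 CPM with ethanol and was the gene with the largest rise (0.40, SE 0.064, adjusted p = 2.65e-05). Ndufs8, a core iron-sulfur subunit, had 84.2 and 82.2 CPM with 4-OHT and 71.4 and 70.4 CPM with ethanol (0.24, adjusted p = 7.71e-05). Both 4-OHT samples stood above both ethanol samples in these genes.

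The remaining calls were under 0.25 in size. Lower were Ndufa12 (−0.22, adjusted p = 0.0231), Atp5sl (−0.20, 0.0322), Ndufs7 (−0.18, 0.00221), Uqcrq (−0.17, 0.00626), Atp5o (−0.13, 0.0126), Atp5b (−0.12, 0.00586), Cox7a2 (−0.12, 0.0366), Cox7b (−0.10, 0.0384) and Atp5a1 (−0.10, 0.0359), with Uqcr11 (adjusted p = 0.00497) and Ndufa7 (0.031), all log2 fold changes by edgeR. Higher were Atp5j (adjusted p = 0.0286), Ndufa6 (0.00736), Ndufa3 (0.12, 0.0498) and Sdha (0.09, 0.0498). Of the 20 calls, those of Ndufa11, Ndufs8, Sdhb, Cox6a2, Uqcr11 and Atp5b held whichever sample was left out, and the other 14 did not, with adjusted p up to 0.362. Without 4-OHT replicate 1 the calls of Ndufa12, Uqcrq, Atp5o, Cox7a1, Cox7a2, Cox7b, Atp5a1, Ndufa3, Ndufa7 and Sdha were lost. Atp5a1, Ndufa3, Ndufa7 and Sdha also lost theirs without ethanol replicate 1. Atp5j and Atp5sl lost theirs without 4-OHT replicate 2 or ethanol replicate 1, Ndufa6 without 4-OHT replicate 2 or ethanol replicate 2, and Ndufs7 without ethanol replicate 1.

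The BioNICD comparison set the DEP mutant against wild type NICD. Of 76 subunit genes tested, edgeR called 35 higher and 11 lower, with 30 not called, against 33.6% higher and 32.0% lower of all 12499 genes, 65.6% in either direction. The median log2 fold change was 0.10, against 0.02 for all genes. Groups did not overlap in 40 genes higher and 16 lower, against 40.9% and 39.7% of all genes. In complex I, 12 of 36 tested were higher and 8 lower, in complex II 3 of 4 were higher and 0 lower, and in complex III 5 of 8 were higher and 0 lower. In complex IV, 7 of 12 were higher and 1 lower, and in complex V 8 of 16 were higher and 2 lower. Without wild type replicate 1, the sample with only even counts, the median of the subunit genes was 0.04, against 0.02 for all genes. Notch1, whose count also takes in reads of the NICD transgene, averaged 645 CPM with the DEP mutant and 281 CPM with wild type, and the part of this difference in the results was not tested.

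Cox6a2 again had the largest change, with 94.9 and 87.5 CPM with the DEP mutant and 36.2 and 38.8 CPM with wild type (1.30, SE 0.058, adjusted p = 3.21e-15). Itgad, which overlaps it, had 0.71 and 0.75 CPM with the DEP mutant and 3.57 and 3.75 CPM with wild type, the other order. In complex II, Sdhb had 213 and 226 CPM with the DEP mutant and 169 and 179 CPM with wild type (0.35, adjusted p = 7.03e-08). Sdhd (0.17) and Sdha were also called higher, and Sdhc (0.03) was not called. The DEP mutant samples stood above the wild-type samples in Cox6a2 and Sdhb.

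Among small subunits of complex III, Uqcrq had 115.9 and 113.3 CPM with the DEP mutant and 81.2 and 89.4 CPM with wild type (0.44, adjusted p = 3.99e-08). Uqcr10 (adjusted p = 2.15e-08) and Uqcrh (0.34, 1.31e-07) rose as well. Ndufv1 had 123.1 and 121.4 CPM with the DEP mutant and 94.6 and 97.5 CPM with wild type (0.36, adjusted p = 5.61e-08). Atp5a1 (0.27, 4.8e-07) and Atp5b (0.24, 8.3e-07), the alpha and beta subunits of complex V, were higher, and so were Cox7a2l (0.34, 1.02e-06) and Cox7a2 (0.29). Ndufb4 was called higher, but not without wild type replicate 1 (0.16, adjusted p = 0.262) or DEP mutant replicate 1 (0.28, 0.0695). Atp5s, known as factor B, had 11.3 and 11.4 CPM with the DEP mutant and 6.29 and 7.63 CPM with wild type (0.75, adjusted p = 4.69e-06). Atp5g1, at about 1 CPM, was called (adjusted p = 0.0429) and lost the call without any 1 of the 4 samples (0.0728 to 0.136).

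The lower genes were led by Ndufs4, an accessory subunit of complex I whose loss causes Leigh-like disease in mice. It had 48.7 and 55.3 CPM with the DEP mutant and 69.2 and 72.5 CPM with wild type (−0.43, adjusted p = 4.39e-07). Cox5b of complex IV had 97.5 and 92.4 CPM with the DEP mutant and 117.1 and 129.4 CPM with wild type (−0.36, adjusted p = 9.88e-07). In both genes the samples of the groups were separate. Among the other lower genes were Ndufv3 (−0.29), Ndufa3 (−0.27), Atp5sl (−0.25), Ndufb9 (−0.24), Ndufa6 (−0.20), Ndufa9 (−0.14), Ndufa10 (−0.11) and Atp5d. Ndufa9 (adjusted p = 0.0738) and Ndufa10 (0.0608) lost their calls without DEP mutant replicate 1, and Atp5d (0.405) and Atp5sl (0.112) without DEP mutant replicate 2. In this comparison the shortest genes were higher: among all genes under 500 bases of exon the median was 0.43, and the 14 subunit genes of that class had 0.21. From 500 to 1000 bases the medians were 0.08 for all genes and 0.10 for the 35 subunit genes. With an offset for length in the fit, 26 subunit genes were higher and 14 lower, against 39.4% and 27.6% of all genes. The median was then 0.07 for the subunit genes and 0.09 for all genes. Cytosolic ribosomal protein genes, many of them short, were higher in 58 of 78 and lower in 0, with a median of 0.42.

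No sample was shared between the 3 comparisons. Cox6a2, Cox7a2, Cox7b, Atp5a1 and Atp5b were called lower with the guides, lower with 4-OHT and higher with the DEP mutant. The last call of Cox7b was lost without wild type replicate 1 (0.10). Without 4-OHT replicate 1, the 4-OHT calls of Cox7a2 (−0.09), Cox7b (−0.08) and Atp5a1 (−0.08) were lost. With close replicates summed, Cox6a2 alone of the 5 genes kept its call with the guides. These 5 were 6.85% of the 73 subunit genes tested in all 3 comparisons, and 4.02% of all 10657 genes so tested had the same calls. In all, 12 further genes (16.4%) were lower with the guides, not called with 4-OHT and higher with the DEP mutant. Of all genes, 7.98% had these calls. These shares are not matched for length, with which fold changes of all genes varied. Under 500 bases the medians of all genes were −0.045 with the guides and 0.43 with the DEP mutant. From 500 to 1000 bases they were −0.15 with the guides and 0.08 with the DEP mutant. Of the 12, Atp5e, Cox6c, Ndufa4 and Ndufb4 lost the call with the guides when close replicates were summed. Under a length offset, Cox6c, Ndufa4 and Ndufb4 lost the calls with the guides and with the DEP mutant. Without wild type replicate 1, the DEP mutant log2 fold change fell from 0.17 to 0.09 for Atp5e and from 0.10 to 0.04 for Cox6c. It also fell from 0.21 to 0.14 for Ndufa1, from 0.23 to 0.17 for Ndufa5 and from 0.35 to 0.16 for Ndufb4. Atp5e, Cox6c, Ndufa1, Ndufa5 and Ndufb4 then lost the call with the DEP mutant. Atp5sl was called lower in all 3, with the guides not when close replicates were summed. Ndufa7 was higher with the guides, lower with 4-OHT and higher with the DEP mutant. Atp5f1, Atp5g3, Cox8a, Ndufb7, Ndufc1 and Uqcrc1 were tested in all 3 and called in none. Atp5l, Cox6b2, Cox7b2, Cox8b, Cox8c and Ndufs5 passed the low-count filter in none, and Atp5g2, Cox7c and Ndufa4l2 did not pass it in the H2A.Z comparison.

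Subunits whose names fall outside the pattern gave mixed results. Cox4i1, the main form of complex IV subunit 4, averaged 451 ± 18.4 CPM with the guides and 326 ± 27.5 CPM in controls (0.47), and it lies on chromosome 8. It was lower with 4-OHT (−0.13) and higher with the DEP mutant (0.31). Cyc1, the cytochrome of complex III, was called lower with the guides (−0.14) and with 4-OHT (−0.12) and higher with the DEP mutant (0.22). Over all genes tested, 32.7% were lower and 31.8% higher with the guides, and 17.2% lower and 19.0% higher with 4-OHT. With the DEP mutant 32.0% were lower and 33.6% higher. Of the related lists, genes of the citric acid cycle and pyruvate dehydrogenase were lower with the guides in 10 of 17 and higher in 1. They were lower with 4-OHT in 5 and higher in 2, and higher with the DEP mutant in 10 and lower in 1. Mdh2 (−0.42) and Pdhx (−0.41) were among those lower with the guides, and Pdha1 (0.54) was higher with the DEP mutant. Assembly factors were lower with the guides in 21 of 43 and higher in 4, led by Cox18 (−0.96), which inserts a complex IV subunit, and Coa4 (−0.86).

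Mitochondrial ribosomal proteins were lower with the guides in 44 of 76 and higher in 4, against 32.7% and 31.8% of all genes. With the DEP mutant they were higher in 35 of 77 and lower in 13, against 33.6% and 32.0% of all genes. Genes of mitochondrial protein import were lower with the guides in 14 of 23 and higher in 3. They were lower with 4-OHT in 9 and higher in 0, against 17.2% and 19.0% of all genes. With the DEP mutant they were higher in 19 and lower in 0. Hspa9, the import motor chaperone, was at 0.60 with the DEP mutant. Regulators of these genes showed no single direction, with 5 higher and 3 lower of 16 with the guides. Of all genes, 31.8% were higher and 32.7% lower. Gabpa, a subunit of GABP, was lower with the guides (−0.27, adjusted p = 0.000234), and Nrf1, which encodes NRF-1, was not called (−0.08, adjusted p = 0.154). Promoters of the lower subunit genes held the NRF-1 core in 9 of 32, the ETS motif in 9 and the YY1 motif in 7. The 30 other subunit genes tested and matched held them in 8, 6 and 4. With the further C the NRF-1 counts were 9 of 32 and 6 of 30.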

How the data were processed

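The deposited values are raw read counts per gene, which the authors made with featureCounts 1.5.0 on an mm9 UCSC annotation with no strand option, per the file headers. Reads from overlapping genes on either strand therefore cannot be told apart. Per the labels' protocols, libraries came from a stranded total RNA kit after ribosomal RNA depletion. The submitters' processing notes also name FastQC, Trimmomatic, STAR and DESeq2, with versions not given in the sources used here. Groups came from the sample titles. In 6 of 8 CRISPR samples with replicate numbers of 3 or more, the description names another group, and the plasmid field goes with the title.

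Counts were scaled to CPM with TMM factors over all 20 samples. Genes passing filterByExpr were tested in R 4.3.3 by edgeR 4.0.16 (quasi-likelihood F test), with p-values adjusted by Benjamini-Hochberg over every gene in the fit and a threshold of 0.05. For H2A.Z the model held 12 samples with the label set as covariate (coefficient of variation 7.95%), and 1 model of 8 samples served the NICD comparisons (3.58%). The SE is the absolute log2 fold change divided by the square root of F. Fitted on simulated counts with 200 genes changed by 0.3 (log2), the models recovered 100 of them for H2A.Z, 117 for NICD-ER and 94 for BioNICD. The simulated samples were independent, without clusters of replicates or a label-set effect, so recovery in the real samples may differ. Replicate samples differed by a mean chi-square per gene of 2.66 to 92.5, above sampling noise, and none were merged in the main fit. Some pairs were far closer than others, so 1 alternative, chosen after seeing the data, summed replicates of a group and label set that differed by under 6. Another, also chosen then, left out guide and control replicates 1. The subunit genes and other lists were chosen with earlier results of these data known. Named genes were those with the largest called changes per complex (up to 3), every called gene of at least 0.5, isoform groups, core subunits, the highest and lowest of each complex and those that differed between label sets. The other genes named were chosen after their values were seen. Alternatives were other scalings, no filter, a length offset, DESeq2 1.42.0, 1 model of all samples, a replicate block and leaving out samples or chromosomes 5 and 8.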

Additional observations from a re-analysis of the deposited data

Results flagged for a closer look

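In 9 of the 101 sets of values checked, 1 sample stood far from the other 5 of its group, where chance gives about 1 in 20. Of these, 6 concern guide replicate 1. It was the highest guide sample for Cox6a1 (263 CPM), Uqcr10 (135 CPM) and Uqcrh (217 CPM), and the lowest for Ndufa12 (18.4 CPM), Ndufb4 (2.40 CPM) and Sdhd (165 CPM). Without it, edgeR gave log2 fold changes of −0.39 for Cox6a1, −0.41 for Ndufb4 and −0.36 for Sdhd, all called, and Uqcr10 became called at −0.16 (adjusted p = 0.00342). Ndufa12 (−0.03, adjusted p = 0.719) and Uqcrh (−0.05, 0.337) were not called without it. The other 3 were control samples, with Ndufa5 highest in replicate 4 (77.5 CPM), Cox5b lowest in replicate 3 (55.8 CPM) and Atp5sl lowest in replicate 6 (21.7 CPM).

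The guide effect differed between the label sets, by the test of the difference (set 2 minus set 1), for Cox6a2 (−0.62), Atp5e (−0.49), Uqcrh (−0.38), Uqcr10 (−0.33) and Ndufa10 (0.28).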

How the results depend on the processing

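In the H2A.Z comparison, the number of subunit genes called higher was 2 in the main fit, 10 with a length offset, 1 on label set 1 alone and 5 on label set 2 alone, and 2 to 4 with 1 sample left out, the 4 being without guide replicate 1. The number lower was 39, with 8 on label set 1 alone and 34 to 42 with 1 sample left out. It was 21 with close replicates summed, an alternative chosen after seeing the data. The shares of all genes lower were 32.7%, 12.95%, 30.14% to 34.37% and 22.44% in these fits. Those of all genes higher were 31.8% in the main fit, 31.14% with the length offset, 14.62% on set 1 alone and 35.71% on set 2 alone. With 1 sample left out, 30.48% to 34.51% of all genes were higher. Atp5e turned to 0.045 on label set 1 alone and Uqcrh to −0.11 on label set 2 alone. In the NICD-ER comparison, 6 subunit genes were higher, with 3 under upper quartile scaling, 3 by DESeq2 and 2 in 1 model of all 20 samples. Of all genes, 19.0% were higher in the main fit and 15.76%, 14.76% and 11.95% in these. The number lower was 14, with 21 under upper quartile scaling, 10 by DESeq2 and 5 in the model of all 20 samples. Of all genes, 17.2% were lower in the main fit and 20.69%, 14.07% and 12.15% in these. With 1 sample left out, the median of the subunit genes was −0.04 to −0.01. In the BioNICD comparison, 35 were higher, with 23 in the model of all 20 samples and 23 to 41 with 1 sample left out, the 23 being without wild type replicate 1. The number lower was 11, with 8 to 15 when 1 sample was left out. With a length offset, 26 were higher and 14 lower in the BioNICD comparison, against 39.4% and 27.6% of all genes, and Cox6c turned to −0.021. The cause of these changes was not tested.

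Deviations of samples under the same replicate number correlated between −0.18 and 0.25. With 2 samples per group, the values for the same and the other number mirror each other and cannot decide on pairing. Guide and control replicates 1 both held fibroblast markers, and guide and control replicates 6 were both high in Rn45s. Whether replicate numbers pair the samples therefore remains undecided. With a replicate block, 2 subunit genes were higher and 37 lower with the guides, against 29.8% and 30.4% of all genes. With 4-OHT 6 were higher and 17 lower, against 20.9% and 19% of all genes. With the DEP mutant 37 were higher and 12 lower, against 34.3% and 32.7%. Without the 3 samples highest in Rn45s, 3 were higher and 29 lower with the guides, against 28.46% and 26.05% of all genes. Without chromosomes 5 and 8, 2 were higher and 33 lower with the guides, against 31.34% and 30.04%. Genes near or under the filter, such as Atp5g1, are limited by depth.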
